A study of Mus musculus with 9 samples.

Results

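The genes described here encode the enzymes and structural proteins that mark, read and pack chromatin: DNA methyltransferases and their partners, Polycomb proteins, histone-modifying enzymes, ATP-dependent remodellers, and high-mobility-group (HMG) and heterochromatin proteins. They were 49 symbols chosen by name, with earlier results of these data known. A gene was measured only through probe sets annotated to its symbol alone, the probe set with the highest mean over the 9 arrays stood for the gene, and its other probe sets served as a check. By this rule 45 of the 49 members were measured, among 18193 genes in all; Suv39h1, Hmga1, Hmgb1 and Hmgn2 are not analysed here.

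RNA from sorted mouse retinal cells was hybridised to 9 microarrays, 3 for each of 3 groups. The rhoGFP-positive and rhoGFP-negative cells came from rhoEGFP mice at postnatal day 4 (P4) and were the GFP-expressing and the remaining cells of the sort, so that the negative fraction is a mixture. The nestinGFP-positive cells came from pNestin-GFP mice at postnatal day 0 (P0). All 3 groups shared the genetic background C57BL/6J-129/Ola, and retinae of 6 to 8 mice were pooled for a replicate. The names of the lines refer to rhodopsin, the light pigment of rods, and to nestin, an intermediate filament of neural progenitors; the labels do not describe the constructs further. Line, age and sorted reporter all differ between the rhoGFP groups and the nestinGFP-positive group, and their contributions cannot be told apart. The comparison within the rhoEGFP line asked which transcripts separate the reporter-positive cells from the other retinal cells of the same age, and the comparisons with nestinGFP-positive cells set both P4 fractions beside a P0 progenitor reporter.

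DNA methylation is laid down by Dnmt3a and Dnmt3b and copied after replication by Dnmt1, which Uhrf1 brings to half-methylated sites, while the Tet enzymes oxidise the mark. Polycomb proteins act in 2 complexes: one methylates histone H3 through Ezh1 or Ezh2, and the other binds that mark through Cbx proteins and ubiquitinates histone H2A. Mouse rods are known for a nuclear architecture in which heterochromatin gathers at the centre of the nucleus after birth, while the lamin B receptor Lbr, a tether of heterochromatin to the envelope, is absent from the mature cell.

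The sorted groups were checked against marker genes. All 11 measured rod markers were called higher in rhoGFP-positive cells in both comparisons, and the median rod marker stood at 12.4 to 12.5 on the rhoGFP-positive arrays, 8.34 to 9.14 on the rhoGFP-negative arrays and 6.72 to 8.18 on the nestinGFP-positive arrays. Markers of progenitors and glia had medians of 7.56 to 8.35, 9.87 to 10.7 and 10.38 to 10.51, and amacrine markers 6.46 to 7.85, 8.44 to 9.60 and 9.44 to 10.004, in the same order of groups. Pigment epithelium markers had medians of 6.60 to 6.72, 5.27 to 5.48 and 4.92 to 5.04, with 2 of 6 called higher in rhoGFP-positive cells in both comparisons. Vascular markers were called lower in rhoGFP-positive cells for 3 of 7 in both comparisons, ganglion markers for 1 and 3 of 6, and bipolar and horizontal markers for 2 and 1 of 8, with 1 higher in each. None of 7 microglial markers was called by limma, with 0 and 3 at an unadjusted p below 0.05. The part of these markers in the results was not tested. Probe sets for 18S RNA averaged 12.1 to 13.6 on the replicate 1 array of each group and at most 10.4 on the others, and the 3′ minus 5′ difference of actin probe sets was 0.91 ± 0.064 (SD, n = 3), 0.65 ± 0.021 and 0.67 ± 0.30. In pooled cells, fewer cells of a type and less RNA per cell cannot be told apart.

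Values are the deposited log2 expression values. A gene was called when limma's adjusted p, taken over all 18193 genes, was below 0.05 and the groups differed at least 2-fold, that is by 1 on the log2 scale. Between rhoGFP-positive and rhoGFP-negative cells 5 of the 45 members (11.1%) were called, 1 higher and 4 lower, beside 10.9% of all genes (3.61% higher and 7.32% lower). With single arrays left out the share of members ran from 4.44% without rhoGFP-negative replicate 3, beside 9.99% of all genes, to 15.6% without rhoGFP-negative replicate 2, beside 10.7%. Against nestinGFP-positive cells 13 members (28.9%) were called, 5 higher and 8 lower, beside 15.6% of all genes (5.06% higher and 10.5% lower). Between rhoGFP-negative and nestinGFP-positive cells a single member, Dnmt3b, was called lower (2.22%), beside 0.989% of all genes (0.385% higher and 0.605% lower); with the replicate number as a block there were 2, Uhrf1 being the other, and 2.49% of all genes. That background itself moved with single arrays, from 0.104% without nestinGFP-positive replicate 2 to 3.07% without rhoGFP-negative replicate 3. Without the fold requirement the members past an adjusted p of 0.05 numbered 16, 21 and 3, in the same order of comparisons, beside 24.3%, 35.8% and 2.03% of all genes. The replicate numbers were taken to pair arrays in 2 comparisons, between the rhoGFP fractions and between rhoGFP-negative and nestinGFP-positive cells. There the block raised these counts to 27 and 13 members, beside 32.2% and 10.8% of all genes. The block was fitted to all arrays together. It therefore also tied rhoGFP-positive to nestinGFP-positive arrays of the same number, which were not taken as pairs. Every p-value given with the block rests on that tie too. In rhoGFP-negative against nestinGFP-positive cells the 10 members that passed only with the block were Dnmt1, Uhrf1, Tet3, Jarid2, Hdac9, Kdm6b, Hmgb2, Lbr, Cbx5 and Satb1. The values that follow are without the block unless it is named. The 3 comparisons share arrays and are not independent of each other.

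**Figure D1:**
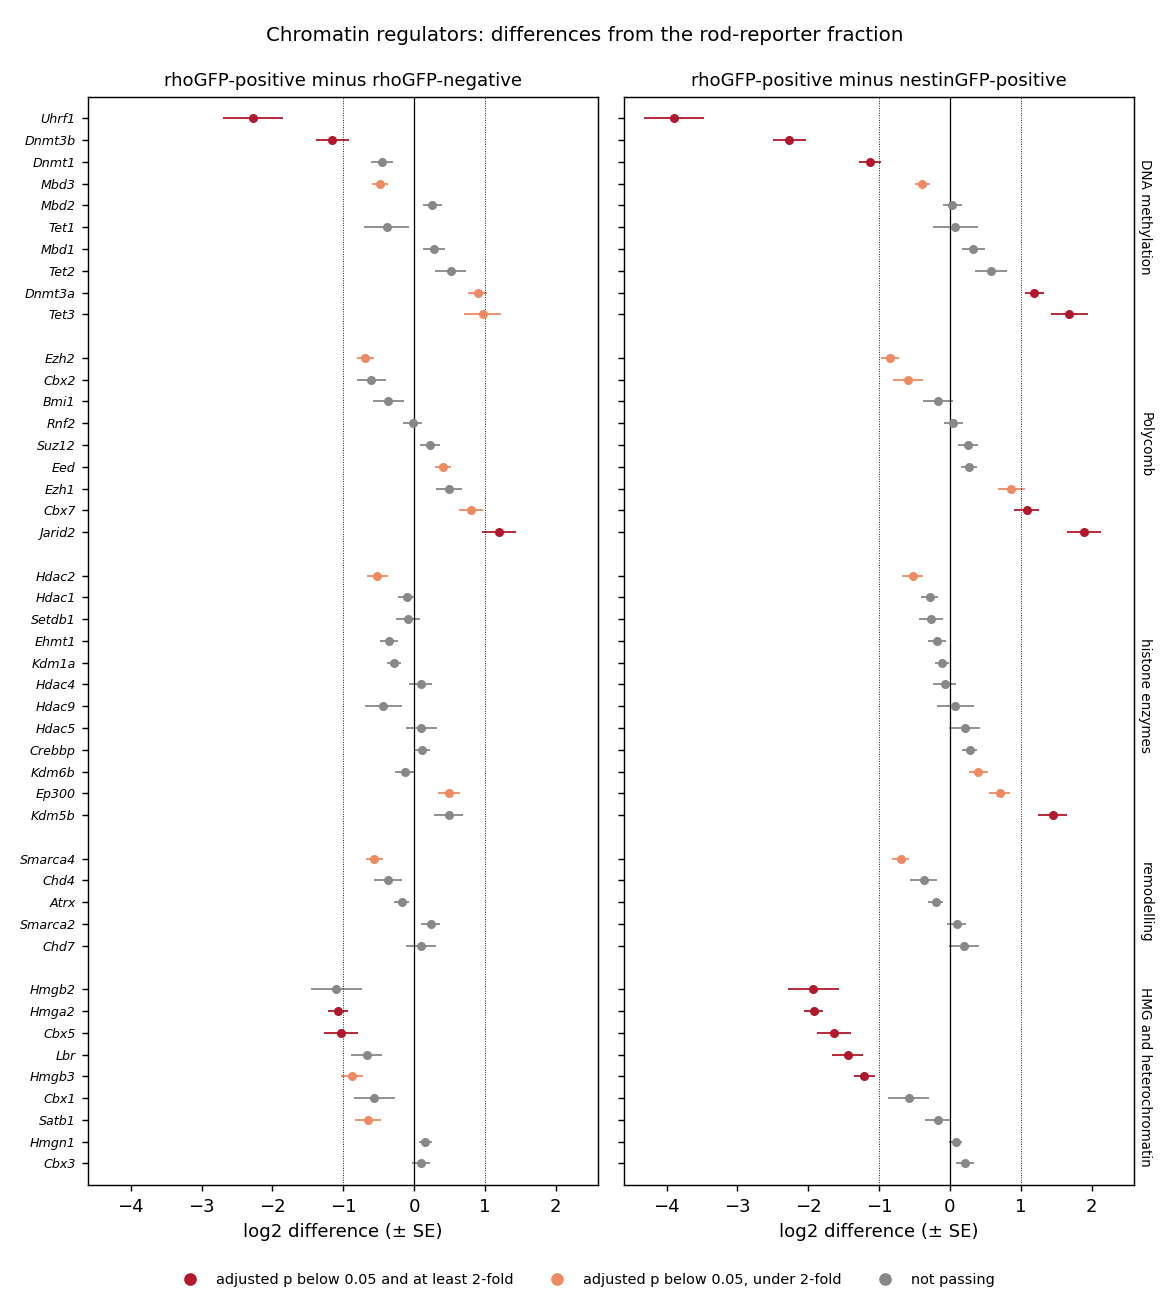
Log2 difference (horizontal axis) of each of the 45 measured members in rhoGFP-positive against rhoGFP-negative cells (left) and against nestinGFP-positive cells (right), with bars of 1 SE from limma, grouped by role and ordered by the right panel; dark red points are called, orange points pass the adjusted p under 2-fold and grey points do not pass. The dark red points number 5 on the left and 13 on the right, and dotted lines mark a 2-fold difference.

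Members differed in both directions. In the comparison of the rhoGFP fractions 27 of 45 differed by less than 0.5 on the log2 scale. Against nestinGFP-positive cells 24 did, and between rhoGFP-negative and nestinGFP-positive cells 33 did. The share of all genes below that size was not counted. The median member differed by -0.13, -0.07 and 0.03, against 0.01, 0.06 and 0.03 for all genes. Higher and lower genes offset each other in these medians. Arrays of the 2 groups compared did not overlap for 26 members, 27 members and 11 members, beside 38.2%, 47.8% and 20.6% of all genes.

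Among the DNA methylation genes, Uhrf1, Dnmt1 and Dnmt3b were lower and Dnmt3a and Tet3 were higher in rhoGFP-positive than in nestinGFP-positive cells. Of 10 genes, 2 were called lower between the rhoGFP fractions, Uhrf1 and Dnmt3b, beside 7.32% of all genes. Against nestinGFP-positive cells 3 were called lower and 2 higher, beside 10.5% and 5.06% of all genes. Replication and cycling genes moved alongside: of 31 measured, 20 were called lower between the rhoGFP fractions, 28 against nestinGFP-positive cells, and 5 in rhoGFP-negative against nestinGFP-positive cells. Their per-array median ran from 7.17 to 7.78 in rhoGFP-positive cells, from 8.51 to 9.81 in rhoGFP-negative cells, with the highest value on replicate 3, and from 9.90 to 10.3 in nestinGFP-positive cells. Their part in the differences of the members was not tested.

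Uhrf1, which reads half-methylated DNA and recruits Dnmt1, had the widest range of all members. It stood at 6.38, 6.40 and 7.40 on the rhoGFP-positive arrays, at 8.64, 8.41 and 9.97 on the rhoGFP-negative arrays and at 10.19, 10.67 and 11.02 on the nestinGFP-positive arrays. No 2 groups overlapped, and rhoGFP-negative replicate 3 stood above its own group and nearest to the nestinGFP-positive arrays. Uhrf1 was lower in rhoGFP-positive cells by -2.28 ± 0.42 (SE; limma adjusted p = 0.00308) against rhoGFP-negative cells and by -3.90 ± 0.42 (limma adjusted p = 7.18e-05) against nestinGFP-positive cells. Between rhoGFP-negative and nestinGFP-positive cells the difference of -1.62 ± 0.42 did not pass (limma adjusted p = 0.0783), and with the replicate block it did (limma adjusted p = 0.00147). It also passed without rhoGFP-negative replicate 3, at -2.10. The second Uhrf1 probe set fell as well, by -1.91 between the rhoGFP fractions.

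Dnmt1, the maintenance methyltransferase, changed in the same order of groups over a narrower range. Its values were 9.84, 9.75 and 9.69 in rhoGFP-positive cells, 10.18, 9.996 and 10.47 in rhoGFP-negative cells and 10.75, 10.78 and 11.15 in nestinGFP-positive cells. The groups did not overlap. The difference from nestinGFP-positive cells was -1.13 ± 0.15 (limma adjusted p = 0.000271), which became -0.998 and lost the 2-fold call without nestinGFP-positive replicate 3. The difference of -0.45 between the rhoGFP fractions and that of -0.68 between rhoGFP-negative and nestinGFP-positive cells did not pass (limma adjusted p = 0.0555 and 0.0546), and with the replicate block both did, under 2-fold (limma adjusted p = 0.0225 and 0.0106).

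The de novo methyltransferases Dnmt3a and Dnmt3b went opposite ways. Dnmt3b stood at 6.62, 6.96 and 7.06 in rhoGFP-positive cells, 7.90, 8.05 and 8.15 in rhoGFP-negative cells and 8.62, 9.18 and 9.65 in nestinGFP-positive cells. It was lower in rhoGFP-positive cells by -1.15 ± 0.23 (limma adjusted p = 0.00485) and -2.27 ± 0.23 (limma adjusted p = 4.99e-05) and was the called member in rhoGFP-negative against nestinGFP-positive cells, at -1.11 ± 0.23 (limma adjusted p = 0.0456). That last call was lost under 10 of the 19 alternatives that kept the call rule. Dnmt3a stood at 10.68, 10.71 and 10.47, then 9.94, 9.71 and 9.53, then 9.62, 9.37 and 9.29, in the same order of groups. Every rhoGFP-positive array was above every other array, and the remaining groups overlapped. Its difference was 1.19 ± 0.14 (limma adjusted p = 0.000112) against nestinGFP-positive cells and 0.90 ± 0.14 (limma adjusted p = 0.00107), short of 2-fold, against rhoGFP-negative cells.

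The probe sets of Dnmt3a disagreed. Of the 4 others, 3 were higher in rhoGFP-positive cells in both comparisons, and the dimmest of the 5 was lower, by -1.01 against rhoGFP-negative and -1.35 against nestinGFP-positive cells (limma adjusted p over probe sets = 0.00187 and 0.000215). The mean of all 5 probe sets differed by 0.54 against nestinGFP-positive cells, below the 2-fold limit.

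Of the Tet dioxygenases, Tet3 was the called gene. Its values were 8.91, 9.99 and 9.53 in rhoGFP-positive cells, 8.56, 8.79 and 8.17 in rhoGFP-negative cells and 7.85, 7.97 and 7.56 in nestinGFP-positive cells, without overlap between any 2 groups. It was higher by 1.68 ± 0.26 (limma adjusted p = 0.00068) against nestinGFP-positive cells and by 0.97 ± 0.26 (limma adjusted p = 0.0217), just short of 2-fold, against rhoGFP-negative cells; without all replicate 1 arrays the second difference was 1.28 and was called. Tet2 stood at 9.52, 10.11 and 10.06, at 9.495, 9.46 and 9.19, and at 9.23, 8.93 and 9.77, and Tet1 at 9.04, 8.74 and 8.21, at 9.65, 8.74 and 8.75, and at 9.05, 8.61 and 8.10. Neither passed in any comparison, with differences from -0.39 to 0.58. The second Tet2 probe set passed in both comparisons of rhoGFP-positive cells, at 0.53 and 0.59 (limma adjusted p over probe sets = 0.0457 and 0.0207), and 1 of 3 other Tet1 probe sets passed between the rhoGFP fractions, at -0.69.

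The methyl-CpG-binding proteins showed small differences. Mbd3, a subunit of the NuRD deacetylase complex, was lower in rhoGFP-positive cells by -0.48 (limma adjusted p = 0.00951) and -0.39 (limma adjusted p = 0.0186), under 2-fold. Mbd1 and Mbd2 differed by -0.22 to 0.33 and did not pass.

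**Figure D2:**
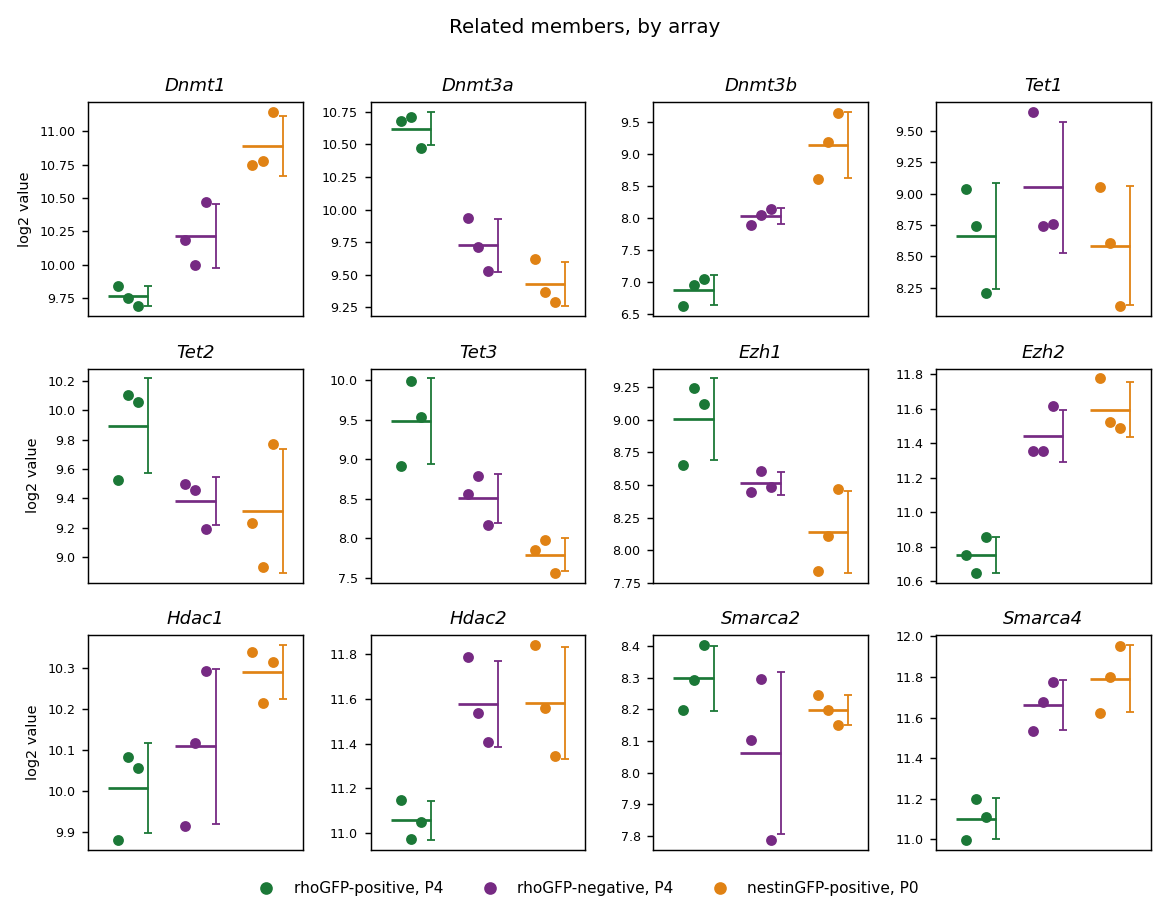
Log2 values by array of related members, with a bar at the group mean and an error bar of 1 SD (n = 3 arrays per group); each panel has its own vertical scale, which does not start at 0. Dnmt1, Dnmt3b, Ezh2, Hdac2 and Smarca4 lie lowest in the rhoGFP-positive arrays, and Dnmt3a, Tet3 and Ezh1 lie highest there.

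Of the 9 measured Polycomb genes 1, Jarid2 (11.1%), was called between the rhoGFP fractions, beside 10.9% of all genes. Against nestinGFP-positive cells 2, Jarid2 and Cbx7 (22.2%), were called, beside 15.6% of all genes. All were higher in rhoGFP-positive cells. No Polycomb gene was called by limma in rhoGFP-negative against nestinGFP-positive cells, where 1 of the 9 had an unadjusted p below 0.05. The catalytic subunits of the methylating complex differed in direction, and its core partners and the ubiquitinating core differed little.

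Ezh2, the methyltransferase of the complex in dividing cells, stood at 10.75, 10.65 and 10.86 in rhoGFP-positive cells, 11.36, 11.36 and 11.62 in rhoGFP-negative cells and 11.78, 11.52 and 11.49 in nestinGFP-positive cells. All rhoGFP-positive arrays were below all other arrays. It fell by -0.69 ± 0.12 (limma adjusted p = 0.00256) and -0.84 ± 0.12 (limma adjusted p = 0.000473), both under 2-fold. Ezh1, its paralogue prominent in cells that no longer divide, stood at 8.65, 9.24 and 9.12, then 8.44, 8.61 and 8.49, then 7.84, 8.11 and 8.47. It was higher in rhoGFP-positive than in nestinGFP-positive cells by 0.86 ± 0.19 (limma adjusted p = 0.00531), and the 0.49 above rhoGFP-negative cells did not pass (limma adjusted p = 0.0933; 0.0199 with the replicate block). The 3 other Ezh1 probe sets were higher too. Between the rhoGFP fractions they had 0.44 to 0.79, and limma passed 1. Against nestinGFP-positive cells they had 0.57 to 0.95, and limma passed all 3.

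Jarid2, a substoichiometric partner that helps the methylating complex reach its targets, was the called Polycomb gene with the widest difference. Its values were 12.26, 11.92 and 11.96 in rhoGFP-positive cells, 11.36, 10.85 and 10.33 in rhoGFP-negative cells and 10.37, 10.23 and 9.87 in nestinGFP-positive cells. The rhoGFP-positive arrays were above all others, and rhoGFP-negative replicate 3 lay among the nestinGFP-positive arrays. Jarid2 was higher by 1.20 ± 0.24 (limma adjusted p = 0.00502) and 1.89 ± 0.24 (limma adjusted p = 0.000204). Between the rhoGFP fractions the call was lost without rhoGFP-negative replicate 3, at 0.94, and without _x_at and _s_at probe sets, at 0.80. Its 2 other probe sets were also higher.

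Cbx7, a reader of the Polycomb mark, stood at 8.32, 8.71 and 8.70 in rhoGFP-positive cells, 7.74, 7.74 and 7.84 in rhoGFP-negative cells and 7.17, 7.48 and 7.84 in nestinGFP-positive cells. The rhoGFP-positive arrays lay above the rest. The differences were 0.80 ± 0.17 (limma adjusted p = 0.00711) and 1.08 ± 0.17 (limma adjusted p = 0.000821), and the latter fell under 2-fold without nestinGFP-positive replicate 1, at 0.92, and as the mean of its probe sets, at 0.54. Cbx2, another reader, had -0.60 (limma adjusted p = 0.0622; 0.000875 with the replicate block) and -0.59 (limma adjusted p = 0.049). Eed, the core subunit that binds the mark, was higher by 0.40 against rhoGFP-negative cells (limma adjusted p = 0.0237) and had 0.27 against nestinGFP-positive cells (limma adjusted p = 0.0892). The other Eed probe set had 0.44 in both comparisons and passed only against nestinGFP-positive cells. Suz12, Bmi1 and Rnf2, core subunits of the 2 complexes, differed by -0.36 to 0.25 and did not pass in any comparison.

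Of 12 measured histone-modifying enzymes, none was called by limma between the rhoGFP fractions, beside 10.9% of all genes, and 5 had an unadjusted p below 0.05. Against nestinGFP-positive cells 1, Kdm5b, was called (8.33%), beside 15.6% of all genes. In rhoGFP-negative against nestinGFP-positive cells 0 were called, beside 0.989% of all genes, with 2 at an unadjusted p below 0.05. Kdm5b, a demethylase of the promoter mark on histone H3 lysine 4, stood at 11.15, 11.49 and 11.16 in rhoGFP-positive cells, 10.94, 10.86 and 10.51 in rhoGFP-negative cells and 10.11, 9.99 and 9.35 in nestinGFP-positive cells. No 2 groups overlapped. It was higher by 1.45 ± 0.21 (limma adjusted p = 0.000399) against nestinGFP-positive cells, or 0.99 as the mean of its probe sets, which falls short of 2-fold. The rhoGFP-negative cells exceeded the nestinGFP-positive cells by 0.96 (limma adjusted p = 0.0493), and the 0.49 between the rhoGFP fractions did not pass (limma adjusted p = 0.124; 0.023 with the replicate block).

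Hdac1 and Hdac2, related class I deacetylases that share complexes, differed in their results. Hdac2 stood at 11.15, 10.97 and 11.05 in rhoGFP-positive cells, 11.79, 11.54 and 11.41 in rhoGFP-negative cells and 11.84, 11.56 and 11.34 in nestinGFP-positive cells. It fell by -0.52 ± 0.15 (limma adjusted p = 0.0281) and -0.53 ± 0.15 (limma adjusted p = 0.0197), under 2-fold, with all rhoGFP-positive arrays lowest. Of the 2 other Hdac2 probe sets, 1 was lower, by -0.66 and -0.58, and 1 was higher, by 0.26 and 0.28. Neither passed. Hdac1 stood at 9.88, 10.08 and 10.06, at 9.92, 10.12 and 10.29, and at 10.34, 10.22 and 10.31. Its differences of -0.10 (95% interval -0.37 to 0.17) and -0.28 (-0.55 to -0.02) did not pass adjustment. Whether Hdac1 and Hdac2 differ from each other was not tested.

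The acetyltransferase Ep300 was higher in rhoGFP-positive cells by 0.49 (limma adjusted p = 0.0393) and 0.70 (limma adjusted p = 0.00484), with no overlap of arrays, and its paralogue Crebbp had 0.12 and 0.28, which did not pass. The 3 other Crebbp probe sets were higher too, and limma passed 1 of them between the rhoGFP fractions, at 0.38, and 2 against nestinGFP-positive cells, at 0.67 and 0.33. Kdm6b, a demethylase of the Polycomb mark, was higher than in nestinGFP-positive cells by 0.40 (limma adjusted p = 0.0411) and had -0.13 between the rhoGFP fractions. Hdac4, Hdac5 and Hdac9, class II deacetylases, Kdm1a, an H3 lysine demethylase, and Setdb1 and Ehmt1, which methylate histone H3 on the heterochromatin residue, differed by -0.44 to 0.52 and passed in no comparison without the replicate block. With it, Hdac9, Kdm1a and Ehmt1 were lower in rhoGFP-positive than in rhoGFP-negative cells (limma adjusted p = 0.0188, 0.0432 and 0.0218), and Hdac9 was higher in rhoGFP-negative than in nestinGFP-positive cells (limma adjusted p = 0.0248). The lowest of these values and the highest both belonged to Hdac9. The probe sets of Hdac4 disagreed against nestinGFP-positive cells. The chosen one had -0.07, and the 2 others were higher in rhoGFP-positive cells, by 0.17 and 0.47, with 1 of them passing in limma.

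None of the 5 remodelling ATPases was called by limma in any comparison, beside 10.9%, 15.6% and 0.989% of all genes. At an unadjusted p below 0.05 there were 1, 1 and 0. Smarca4, a catalytic subunit of the BAF complex, passed the adjusted p without reaching 2-fold. It stood at 10.998, 11.20 and 11.11 in rhoGFP-positive cells, 11.53, 11.68 and 11.78 in rhoGFP-negative cells and 11.62, 11.80 and 11.95 in nestinGFP-positive cells, with every rhoGFP-positive array below every other. It fell by -0.56 ± 0.12 (limma adjusted p = 0.00702) and -0.69 ± 0.12 (limma adjusted p = 0.00141). Smarca2, the alternative ATPase of that complex, stood at 8.20, 8.29 and 8.40, at 8.10, 8.30 and 7.79, and at 8.25, 8.20 and 8.15, and differed by 0.24 and 0.10, which did not pass. The second Smarca2 probe set was higher than in nestinGFP-positive cells by 0.98, past an adjusted p of 0.05. Chd4 of the NuRD complex, Chd7, which acts at enhancers, and Atrx, which loads histone H3 variants at heterochromatin, differed by -0.37 to 0.20 and did not pass. Between the rhoGFP fractions Chd4 passed with the replicate block (limma adjusted p = 0.024), and a second Chd4 probe set of nearly the same brightness was lower there by -0.83 (limma adjusted p over probe sets = 0.0373).

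The HMG and heterochromatin genes were called only as lower in rhoGFP-positive cells. Of 9 measured, 2 were called between the rhoGFP fractions (Hmga2 and Cbx5) and 5 against nestinGFP-positive cells (Hmga2, Hmgb2, Hmgb3, Lbr and Cbx5), beside 7.32% and 10.5% of all genes called lower. The DNA methylation genes had as many calls, 2 and 5 of 10, and both calls of the HMG and heterochromatin genes between the rhoGFP fractions were lost without rhoGFP-negative replicate 3. The median difference of the 9 was -0.67 and -1.21 in these comparisons and -0.33 in rhoGFP-negative against nestinGFP-positive cells, where limma called 0 and 5 had an unadjusted p below 0.05.

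Hmga2, an architectural protein of embryonic and stem cells that bends AT-rich DNA, stood at 6.34, 6.24 and 6.11 in rhoGFP-positive cells, 7.16, 7.15 and 7.60 in rhoGFP-negative cells and 8.06, 8.27 and 8.14 in nestinGFP-positive cells. No 2 groups overlapped. It fell by -1.07 ± 0.14 (limma adjusted p = 0.000385) and -1.92 ± 0.14 (limma adjusted p = 7.55e-06), and the -0.85 of rhoGFP-negative against nestinGFP-positive cells passed without reaching 2-fold (limma adjusted p = 0.0239). Between the rhoGFP fractions the value was -0.92 without rhoGFP-negative replicate 3, -0.91 as the mean of its probe sets and -0.82 once those ending in _x_at or _s_at were dropped, all short of 2-fold.

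The DNA-bending proteins Hmgb2 and Hmgb3 were both lower. Hmgb2 stood at 10.07, 8.91 and 9.65 in rhoGFP-positive cells, 10.87, 10.07 and 10.98 in rhoGFP-negative cells and 12.05, 11.31 and 11.05 in nestinGFP-positive cells. The highest rhoGFP-positive array equalled the lowest rhoGFP-negative array, and the nestinGFP-positive arrays were above all others. The difference from nestinGFP-positive cells was -1.93 ± 0.36 (limma adjusted p = 0.00203). That between the rhoGFP fractions was -1.10 ± 0.36 and narrowly missed the threshold (limma adjusted p = 0.0503), whereas with the replicate block it was called (limma adjusted p = 0.00291). Hmgb3 stood at 10.87, 11.05 and 11.33, then 11.74, 12.04 and 12.11, then 12.12, 12.45 and 12.30. Its groups did not overlap, and it fell by -0.88 ± 0.15 (limma adjusted p = 0.00227) and -1.21 ± 0.15 (limma adjusted p = 0.000206). Hmgn1, a nucleosome-binding protein, was among the brightest genes on the arrays, at 13.09 to 13.34 on all 9, and differed by -0.08 to 0.16 without passing. Its 3 other probe sets were higher in rhoGFP-positive cells, by 0.14 to 0.73 between the rhoGFP fractions and by 0.06 to 0.68 against nestinGFP-positive cells. Limma passed 1 of them in each of these comparisons.

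Lbr, the lamin B receptor, stood at 9.80, 9.54 and 9.62 in rhoGFP-positive cells, 10.16, 9.93 and 10.88 in rhoGFP-negative cells and 11.27, 11.09 and 10.93 in nestinGFP-positive cells. The groups did not overlap, and rhoGFP-negative replicate 3 lay close to the nestinGFP-positive arrays. It was lower than in nestinGFP-positive cells by -1.44 ± 0.22 (limma adjusted p = 0.000602). The -0.67 ± 0.22 between the rhoGFP fractions missed the threshold (limma adjusted p = 0.0516), and with the replicate block it passed (limma adjusted p = 0.0292) while remaining under 2-fold. Without rhoGFP-negative replicate 3, the rhoGFP-negative cells were lower than nestinGFP-positive cells by -1.05 and were called.

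Cbx5, a heterochromatin protein that binds the methylated histone, stood at 9.33, 9.78 and 9.98 in rhoGFP-positive cells, 10.33, 10.71 and 11.15 in rhoGFP-negative cells and 10.998, 11.42 and 11.56 in nestinGFP-positive cells. The rhoGFP-positive arrays were lowest, and the other groups overlapped. It fell by -1.03 ± 0.24 (limma adjusted p = 0.0109) and -1.63 ± 0.24 (limma adjusted p = 0.000494). The first difference lost its 2-fold call without rhoGFP-positive replicate 1, at -0.85, and without rhoGFP-negative replicate 3, at -0.82. As the mean of its 5 probe sets, of which 2 dim ones differed by -0.04 and 0.04 between the rhoGFP fractions, the differences were -0.53 and -0.88. Its paralogues Cbx1 and Cbx3 differed by -0.58 to 0.21 and did not pass without the replicate block. With it, Cbx1 passed between the rhoGFP fractions (limma adjusted p = 0.0135). It also passed against nestinGFP-positive cells (limma adjusted p = 0.0088), where the numbers were not taken to pair arrays. Cbx3 was read by 1 probe set, with a mean of 7.43 over the 9 arrays, and no other probe set served as a check. Satb1, a chromatin organiser, was lower than in rhoGFP-negative cells by -0.65 (limma adjusted p = 0.0251) and had -0.16 against nestinGFP-positive cells.

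**Figure D3:**
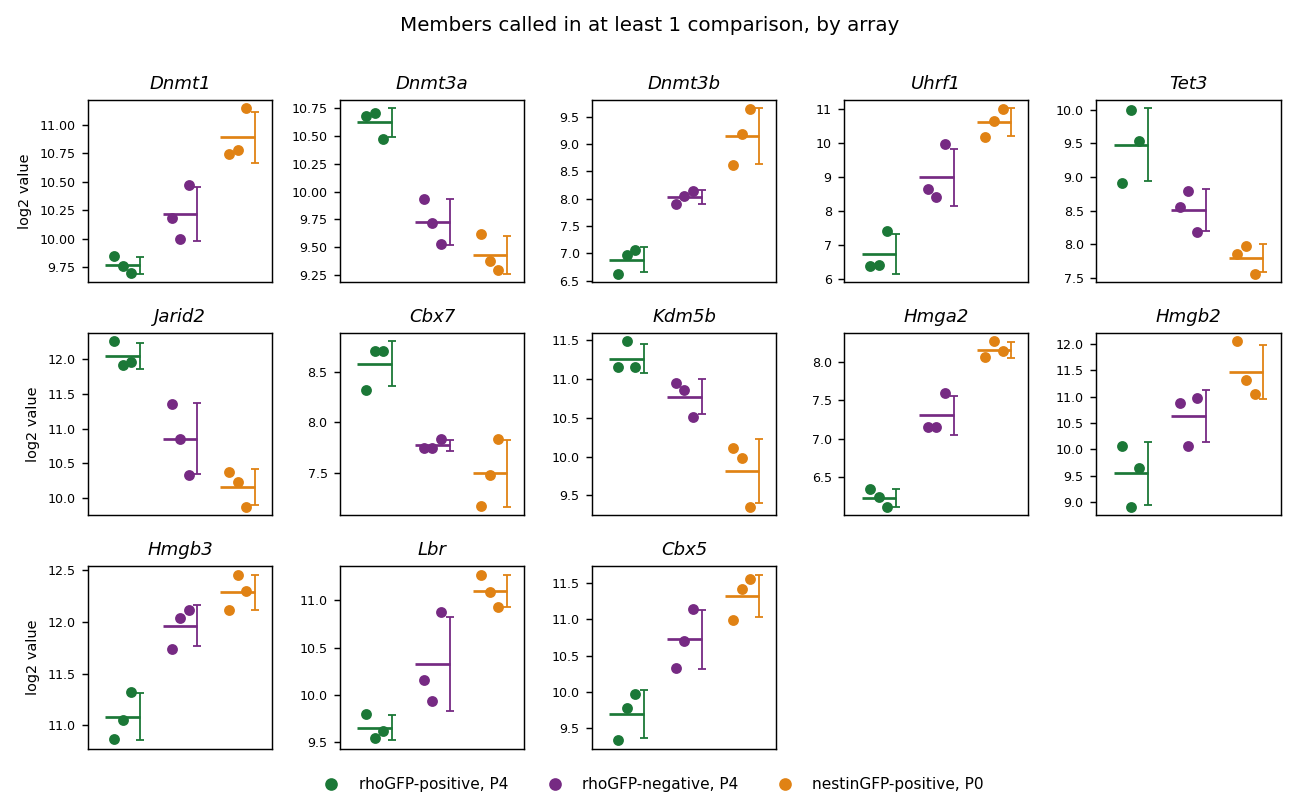
Log2 values by array of the members called in at least 1 comparison, with a bar at the group mean and an error bar of 1 SD (n = 3 arrays per group); each panel has its own vertical scale, which does not start at 0. Jarid2, for example, stood at 11.92 to 12.26 on the rhoGFP-positive arrays and at 9.87 to 10.37 on the nestinGFP-positive arrays, and Uhrf1 at 6.38 to 7.40 and 10.19 to 11.02.

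Replication and cycling genes also moved alongside the lower HMG and heterochromatin members and Ezh2. Taken within replicate numbers 1, 2 and 3, their median difference between the rhoGFP fractions was -1.26, -1.29 and -1.88. Every number gave a negative difference for Uhrf1, Dnmt1, Dnmt3b, Ezh2, Hmga2, Hmgb2, Hmgb3, Lbr and Cbx5. Except for Hmgb2, the arrays of the 2 fractions did not overlap for these genes. Any pairing of arrays would therefore give them a negative sign, which adds nothing to their lower values. The pair numbered 3 had the largest difference for Uhrf1 (-2.26, -2.00 and -2.57), Dnmt1 (-0.34, -0.24 and -0.77), Ezh2 (-0.60, -0.71 and -0.76), Hmga2 (-0.82, -0.91 and -1.49), Hmgb2 (-0.80, -1.17 and -1.32), Lbr (-0.36, -0.39 and -1.26) and Cbx5 (-0.997, -0.92 and -1.17), as it had for the list. It did not for Dnmt3b (-1.28, -1.09 and -1.09) and Hmgb3 (-0.87, -0.98 and -0.79), nor for Cbx1 and Satb1, which had their smallest difference there. The largest difference at number 3 was not particular to lower members. It was also found for the higher Jarid2 (0.90, 1.06 and 1.63), Tet3 (0.35, 1.21 and 1.36) and Kdm5b (0.20, 0.62 and 0.64). The higher Dnmt3a (0.75, 0.998 and 0.95) and Cbx7 (0.58, 0.96 and 0.87) did not show it. The part of replication and cycling genes in the members' differences was not tested.

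**Figure D4:**
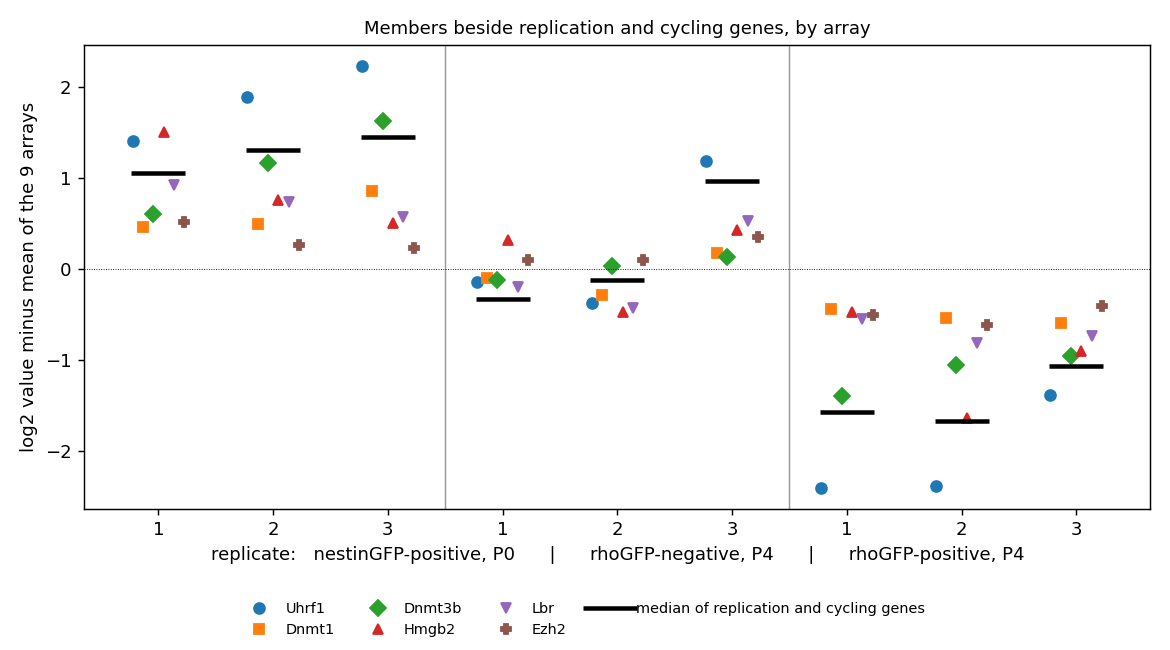
Log2 value minus its own mean over the 9 arrays, by array, for 6 members (points) and for the median of 31 replication and cycling genes (bars). The bars lie lowest on the rhoGFP-positive arrays and highest on the nestinGFP-positive arrays. For the bars and for each of the 6 members, rhoGFP-negative replicate 3 lies above the other arrays of its group.

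Promoters are shown for the 4 members with the largest called lower differences from nestinGFP-positive cells, Uhrf1, Dnmt3b, Hmgb2 and Hmga2, and for Jarid2, which had the largest higher one, whatever motifs they hold. The letters are the 250 bases before the annotated start in RefSeq's GRCm38.p6, 5′ to 3′ on the strand of the gene, and 39 of the 45 measured members had such a window. They are chr17:56304063-56304312 (plus strand) for Uhrf1, chr2:153649199-153649448 (plus strand) for Dnmt3b, chr8:57511593-57511842 (plus strand) for Hmgb2, chr10:120476470-120476719 (minus strand) for Hmga2 and chr13:44730524-44730773 (plus strand) for Jarid2. Uhrf1 and Jarid2 had 2 windows each, and the window with more E2F matches, then with more CCAAT matches, is shown. Capitals mark 2 motifs on either strand: the E2F 8-mers TTTCCCGC, TTTGGCGC, TTTCGCGC and TTTGCCGC, named for the factors that drive replication genes, and the CCAAT box.
Uhrf1: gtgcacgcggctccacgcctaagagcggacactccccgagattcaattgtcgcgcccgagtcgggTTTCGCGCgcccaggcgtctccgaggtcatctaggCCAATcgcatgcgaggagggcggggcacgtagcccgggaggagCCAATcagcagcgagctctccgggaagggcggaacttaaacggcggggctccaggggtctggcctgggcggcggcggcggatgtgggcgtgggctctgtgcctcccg
Dnmt3b: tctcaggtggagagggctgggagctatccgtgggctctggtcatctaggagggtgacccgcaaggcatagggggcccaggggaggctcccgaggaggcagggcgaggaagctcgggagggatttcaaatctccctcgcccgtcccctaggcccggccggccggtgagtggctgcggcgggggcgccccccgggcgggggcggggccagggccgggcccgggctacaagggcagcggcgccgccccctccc
Hmgb2: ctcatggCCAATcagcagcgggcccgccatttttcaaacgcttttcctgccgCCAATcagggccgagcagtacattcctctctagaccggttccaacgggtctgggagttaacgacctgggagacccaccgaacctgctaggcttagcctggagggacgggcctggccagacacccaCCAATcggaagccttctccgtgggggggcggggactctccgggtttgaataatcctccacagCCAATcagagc
Hmga2: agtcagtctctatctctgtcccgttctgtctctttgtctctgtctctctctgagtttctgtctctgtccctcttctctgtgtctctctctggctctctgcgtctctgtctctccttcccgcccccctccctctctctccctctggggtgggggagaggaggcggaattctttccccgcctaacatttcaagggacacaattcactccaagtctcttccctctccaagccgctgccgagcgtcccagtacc
Jarid2: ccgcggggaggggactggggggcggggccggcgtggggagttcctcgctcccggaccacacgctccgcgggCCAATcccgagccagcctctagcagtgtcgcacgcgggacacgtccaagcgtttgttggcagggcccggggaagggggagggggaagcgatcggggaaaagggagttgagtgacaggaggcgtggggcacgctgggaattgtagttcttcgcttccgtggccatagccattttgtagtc
The windows of Dnmt3b and Hmga2 held neither motif and have no capitals.

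An E2F 8-mer was found before 2.16% of 27025 genes with a window and before 4 of the 39 members: Uhrf1, Dnmt1, Suz12 and Cbx3. It was present in 2 (Uhrf1 and Dnmt1) of the 8 members called lower against nestinGFP-positive cells and in 0 of the 5 called higher. A CCAAT box was present in 37.5% of all genes, 19 of the 39 members, 6 of the 8 and 3 of the 5. The motif TAATCC, bound by the photoreceptor factor Crx, was present in 7.21% of all genes, 3 of the 39 members, 1 of the 8 (Hmgb2) and 0 of the 5, and is not capitalised. The motifs were chosen with the values known, and a match describes these letters only.

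Of 188 other chromatin genes grouped by the same roles, 175 were measured, and 13 (7.43%; 5 higher, 8 lower), 30 (17.1%; 11 higher, 19 lower) and 1 (0.571%) were called in the comparisons of rhoGFP-positive with rhoGFP-negative, rhoGFP-positive with nestinGFP-positive and rhoGFP-negative with nestinGFP-positive cells, beside 10.9%, 15.6% and 0.989% of all genes. Among DNA methylation genes, Zbtb4, a methyl-CpG-binding zinc finger protein, was higher in rhoGFP-positive cells by 1.77 ± 0.15 (limma adjusted p = 3.15e-05) and 2.26 ± 0.15 (limma adjusted p = 5.25e-06). Gadd45g, a stress-response gene linked to demethylation, was lower than in rhoGFP-negative cells by -2.16 ± 0.28 (limma adjusted p = 0.00037). Hells, a remodeller needed for DNA methylation, was lower than in nestinGFP-positive cells by -1.33 ± 0.25 (limma adjusted p = 0.00227). None of 24 further Polycomb genes was called by limma in any comparison, with 8, 15 and 3 at an unadjusted p below 0.05.

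The other histone enzymes gave 4 higher and 2 lower calls between the rhoGFP fractions and 6 higher and 5 lower against nestinGFP-positive cells, of 59 measured. These shares were 10.2% and 18.6%, beside 10.9% and 15.6% of all genes. The histone H3 methyltransferase relatives Setdb2 and Suv39h2 were higher than in rhoGFP-negative cells by 1.91 ± 0.14 and 1.26 ± 0.16, and the demethylase Kdm4c by 1.35 ± 0.19 (limma adjusted p = 1.41e-05, 0.000361 and 0.000652). Against nestinGFP-positive cells the 3 largest higher differences were Setdb2 at 2.32, Kdm4c at 1.80 and the deacetylase Sirt2 at 1.503. The methyltransferases Setd7 and Smyd2 were lower in both comparisons, by -1.94 and -1.06 and by -1.74 and -1.79, and the acetyltransferase Kat2a was lower than in nestinGFP-positive cells by -1.18. Limma called 0 of the 59 in rhoGFP-negative against nestinGFP-positive cells, with 12 at an unadjusted p below 0.05.

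Of 45 other remodelling genes, 3 (6.67%) were called lower between the rhoGFP fractions, beside 7.32% of all genes. They were Baz1a (-2.08 ± 0.14), an ACF subunit, Smarcd3 (-1.69 ± 0.27), a BAF subunit, and Mta3 (-1.03 ± 0.22) of NuRD. Against nestinGFP-positive cells they fell by -2.58, -2.64 and -1.63, and Brd7, a subunit of the related PBAF complex, was higher by 1.20. The subunits exchanged between the progenitor and neuronal BAF complexes gave values of both signs among the neuronal forms. Of the progenitor forms, Actl6a had -0.06 and -0.13, Phf10 -0.39 and -0.46 and Ss18 -0.46 and -0.47 in rhoGFP-positive against rhoGFP-negative and against nestinGFP-positive cells, with Ss18 passing in both (limma adjusted p = 0.00869 and 0.00505) and Phf10 in the second (limma adjusted p = 0.0213). Of the neuronal forms, Actl6b had 0.18 and -0.85, Dpf3 0.19 and 0.31 and Ss18l1 -0.27 and -0.56, none passing, while Dpf1 had -0.62 and a called -1.25 (limma adjusted p = 0.0415). Limma called 0 of the 45 in rhoGFP-negative against nestinGFP-positive cells, with 8 at an unadjusted p below 0.05.

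The other HMG, lamina and heterochromatin genes, 36 measured, had 2 lower calls between the rhoGFP fractions (5.56%, beside 7.32% of all genes called lower and 3.61% higher) and 9 lower and 3 higher calls against nestinGFP-positive cells (33.3%, beside 10.5% lower and 5.06% higher). Chaf1b, a subunit of the factor that assembles chromatin behind the replication fork, was lower by -1.95 ± 0.35 (limma adjusted p = 0.00259) and -2.98 ± 0.35 (limma adjusted p = 0.00012), and the nucleosome-binding Hmgn5 by -1.01 ± 0.22 (limma adjusted p = 0.00814) in the first comparison. Cenpa, the centromeric histone, and Asf1b, a histone chaperone of dividing cells, were lower than in nestinGFP-positive cells by -2.14 ± 0.40 and -1.94 ± 0.32 (limma adjusted p = 0.00225 and 0.000968). The linker histone gene H1f2 was higher there by 1.69 ± 0.21 (limma adjusted p = 0.000179), as were the nuclear envelope genes Sun1 and Syne2 by 1.11 and 1.09. H1f2 was also the called gene in rhoGFP-negative against nestinGFP-positive cells, at 1.17 ± 0.21 (limma adjusted p = 0.0296).

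The lamin genes differed among themselves. Lmna, which encodes the A-type lamins, had -0.07 and -0.05 in rhoGFP-positive against rhoGFP-negative and nestinGFP-positive cells (limma adjusted p = 0.797 and 0.808). Lmnb1 was lower than in nestinGFP-positive cells by -1.25 ± 0.43 (limma adjusted p = 0.045) and had -0.98 against rhoGFP-negative cells without passing. Lmnb2 was lower by -0.90 (limma adjusted p = 0.0262), under 2-fold, and had -0.37 in the other comparison.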

How the data were processed

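Affymetrix expression arrays of 9 samples, 3 per group, were analysed. The authors deposited log2 values; the submitters' processing notes name RMA as the method, without a version. RMA compresses low signals, so folds of dim genes are understated. No detection calls or scan batches were at hand, and the number of arrays limits the precision. The labels call replicates biological.

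The table held 45101 probe sets, of which 64 were controls. GEO's platform annotation gave 1 gene symbol for 34945, several for 932 and none listed for 9160; 34741 symbols were looked up by Entrez ID. These gave 18193 genes, and 9010 of them had several probe sets.

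Group differences were fitted by limma 3.58.1 in R 4.3.3 (lmFit, eBayes, two-sided; all 9 arrays, 3 group means) with Benjamini-Hochberg adjustment over 18193 genes, and tested on simulated data. A call needed both an adjusted p below 0.05 and a log2 difference of 1 or more in size. The members and lists were chosen with earlier results of these data known. Per-array values were given for up to 4 called members per subgroup with the largest differences and for related genes whatever their result, and of the other lists for the 3 largest called differences each way. Lists are described by counts and medians.

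Same-numbered arrays deviated together between the rhoGFP fractions (correlation of deviations over genes 0.62, 0.45 and 0.45). Between rhoGFP-negative and nestinGFP-positive cells the correlations were 0.54, 0.15 and 0.23. There rhoGFP-negative replicate 2 correlated more with nestinGFP-positive replicate 3 (0.22) than with replicate 2 (0.15). The pairing in that comparison thus rests mostly on replicate 1. The numbers were taken to pair arrays in both comparisons, a choice that rests on these correlations since the labels state no pairing. Between rhoGFP-positive and nestinGFP-positive cells the correlations were 0.52, -0.01 and 0.25, and the numbers were not taken to pair arrays. The block was nevertheless fitted to all arrays together. Alternatives were other normalizations, probe-set rules, filters, thresholds, sample sets, the block and leaving out arrays; that without all replicate 1 arrays was added after seeing the data, for their 18S signal.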

Additional observations from a re-analysis of the deposited data

How the results depend on the processing

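No member's difference changed direction in a called result under any alternative. Called under all 19 alternatives that kept the call rule were 2 of 5 members between the rhoGFP fractions, 8 of 13 against nestinGFP-positive cells and 0 of 1 in the third comparison. Requiring an adjusted p of 0.05 alone gave 16, 21 and 3 members in the 3 comparisons, and 40 and 75 other chromatin genes in the first 2, whose counts were 13 and 30. Leaving out _x_at and _s_at probe sets left 3 members between the rhoGFP fractions. Leaving out arrays gave 2 to 7 members there, the lowest without rhoGFP-negative replicate 3 and the highest without rhoGFP-negative replicate 2, 12 to 14 against nestinGFP-positive cells, and 0 to 4 in the third comparison, the highest without rhoGFP-negative replicate 3. For other chromatin genes the ranges were 11 to 15, 27 to 33 and 0 to 6. In rhoGFP-negative against nestinGFP-positive cells the count of members was 0 with quantile normalization, the mean of all probe sets, only the 6 arrays compared, or an adjusted p below 0.01, and 2 with the replicate block. For other chromatin genes there it was 2 with cyclic loess and without genes below the 40th percentile, 0 with the mean of all probe sets, the 6 arrays or an adjusted p below 0.01, and 6 with the replicate block. The pairing changed no other member's 2-fold call than those of Uhrf1 in that comparison and Hmgb2 between the rhoGFP fractions. Hmgb2 there was called under 9 of those 19 alternatives. The cause of these changes was not tested. With 3 arrays per group, differences in dim genes are limited by signal over background.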

Other observations

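The order of the 3 group means was nestinGFP-positive above rhoGFP-negative above rhoGFP-positive for 16 of the 45 members, and the arrays of all 3 groups were apart for 6 of them: Dnmt1, Dnmt3b, Uhrf1, Hmga2, Hmgb3 and Lbr. Among all genes 25.9% had this order. The reverse order was found for 14 members and 33.7% of all genes, with the arrays of all 3 groups apart for Tet3 and Kdm5b. Eed was the remaining member with all groups apart, highest in rhoGFP-positive and lowest in rhoGFP-negative cells.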
